A study of Mus musculus with 144 samples.

Results

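CXC chemokines are small proteins that steer white blood cells, and 6 of their genes were followed here in single cells taken from mouse retinas with an uncrushed optic nerve or after its crush: Cxcl1, Cxcl2, Cxcl9, Cxcl10, Cxcl14 and Cxcl16. They were taken by gene name from the 55364 genes of the deposited table. The cells came from Iba1-EGFP mice, which carry a green fluorescent protein driven from the Iba1 (Aif1) gene in microglia and other myeloid cells, on the C57BL/6 background at 20 to 22 months of age. Each cell was sorted into its own well, lysed and made into its own library. The wells form a series of 54 from mice with no treatment (uncrushed), 36 from day 2 after nerve crush and 54 from day 4, on 3 plates. No animal is named, so each time point is 1 sample, the wells are not replicates of it, and no test between time points is given. Spreads below are over wells, and intervals cover counting error only.

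The reads of each well were recovered from the FPKM values (fragments per kilobase of exon and per 1000000 fragments). They fell into 88 deep wells with 60079 to 8065036 reads and 56 shallow wells with 643 to 14205 reads. Of the deep wells, 39 were uncrushed, 25 were from day 2 and 24 from day 4, and a deep well was said to hold a gene at 10 or more reads. The labelled cell type was checked first: of 11 microglia markers, a deep well held a median of 8 in uncrushed wells, 8 in day 2 wells and 9 in day 4 wells. None of 5 T and NK cell markers and none of 4 endothelial markers was held by any deep well. Other lists were not at 0. No monocyte marker of 5 was held by 37 uncrushed, 22 day 2 and 18 day 4 wells, and the rest held 1. No border macrophage marker of 6 was held by 37, 25 and 22 wells, and the most in a well was 2. No rod marker of 13 was held by 27, 19 and 19 wells, and no Mueller glia marker of 5 by 23, 14 and 11. S100a8 is a subunit of the neutrophil protein calprotectin. It reached 1000 reads per 1000000 (RPM) or more in 1 uncrushed, 6 day 2 and 2 day 4 deep wells. The same numbers of wells held at least 3 of 9 neutrophil markers, although Camp, Ngp and Ltf were held by none. S100a8 is itself among the 9, with S100a9 and Cxcr2, so these 2 counts are not independent. Each time point filled its own plate rows, so time and row cannot be told apart. The 18 day 4 wells of plate 1 have titles of day 4 but treatment tags of day 2. They were placed by title and are called the doubly labelled wells, and results that rest on them are also given without them.

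The family divides by the receptor that its products bind. Cxcl1 and Cxcl2 bind CXCR2 and attract neutrophils, and their transcription is classically driven by NF-kB downstream of Toll-like and interleukin 1 receptors. Cxcl9 and Cxcl10 bind CXCR3 on activated T and NK cells and are classical interferon-induced genes. Cxcl14 is a largely homeostatic chemokine of epithelia and brain. Cxcl16 is made as a membrane-bound protein, can be shed by the proteases ADAM10 and ADAM17, binds CXCR6 and also acts as a scavenger receptor.

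The sequences before the starts of Cxcl1, Cxcl2, Cxcl9 and Cxcl10 are shown because NF-kB and interferon-activated factors are known to bind near such starts. All 4 genes lie on chromosome 5. The windows below run from 250 to 31 bases before the RefSeq start of each gene (RefSeq, GRCm38.p6), at chr5:90890995-90891214 (+ strand, Cxcl1), chr5:90903649-90903868 (+, Cxcl2), chr5:92328110-92328329 (-, Cxcl9) and chr5:92348920-92349139 (-, Cxcl10). Capitals mark matches, on either strand, to 2 NF-kB-type patterns that can overlap, GGGNNTTCC and GGNNTTTCC, and to an interferon-response-type pattern, GAAANNGAA. The letters of the patterns were settled after the windows had been read.
Cxcl1: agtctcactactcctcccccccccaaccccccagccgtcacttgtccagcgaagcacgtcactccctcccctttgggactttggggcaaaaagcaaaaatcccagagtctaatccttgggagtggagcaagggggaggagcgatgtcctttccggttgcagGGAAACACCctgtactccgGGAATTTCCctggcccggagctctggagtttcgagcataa
Cxcl2: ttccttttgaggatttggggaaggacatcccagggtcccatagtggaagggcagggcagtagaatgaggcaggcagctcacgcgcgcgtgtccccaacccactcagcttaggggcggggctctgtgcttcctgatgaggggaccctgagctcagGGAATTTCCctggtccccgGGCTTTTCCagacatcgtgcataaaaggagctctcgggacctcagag
Cxcl9: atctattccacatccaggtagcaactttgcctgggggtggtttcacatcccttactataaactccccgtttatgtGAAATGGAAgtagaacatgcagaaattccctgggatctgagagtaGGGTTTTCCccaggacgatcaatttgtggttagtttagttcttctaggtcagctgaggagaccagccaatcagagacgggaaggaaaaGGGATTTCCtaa
Cxcl10: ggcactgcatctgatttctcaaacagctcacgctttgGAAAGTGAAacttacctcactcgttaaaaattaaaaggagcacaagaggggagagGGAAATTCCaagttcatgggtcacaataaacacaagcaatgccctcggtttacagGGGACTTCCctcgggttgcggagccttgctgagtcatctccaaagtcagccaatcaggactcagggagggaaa
The Cxcl1 and Cxcl2 windows each hold GGNNTTTCC at 2 places, from -89 and -70 in Cxcl1 (the first on the opposite strand) and from -96 and -77 in Cxcl2. GGAATTTCC is present in both, from -70 and from -96. Cxcl9 holds 2 places that match both NF-kB-type patterns, from -130 and -42, and GAAANNGAA from -175. Cxcl10 holds GGGNNTTCC from -103, GGNNTTTCC on the opposite strand from -158 and GAAANNGAA from -213. The interferon-response-type pattern is thus in the Cxcl9 and Cxcl10 windows and not in those of Cxcl1 and Cxcl2. In 32851 RefSeq windows of the same length, 4.2% hold GGGNNTTCC, 4.3% hold GGNNTTTCC, 7.17% hold either and 6.29% hold GAAANNGAA. A match describes the letters and not a bound site. The Cxcl14 window, on chromosome 13, holds GAAANNGAA from -172 and neither NF-kB-type pattern.

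Cxcl16 was held by more deep wells than any other of the 6 genes, and its share was higher at day 4. It was held by 5 of 39 uncrushed wells (12.8%, 95% Clopper-Pearson interval 4.30 to 27.4%), 6 of 25 day 2 wells (24%, 9.36 to 45.1%) and 15 of 24 day 4 wells (62.5%, 40.6 to 81.2%). Cxcl2 was held by 1, 6 and 2 wells over the same series, Cxcl10 by 1, 1 and 5, Cxcl14 by 1, 1 and 3, and Cxcl9 by 0, 1 and 1. Cxcl1 was held by none. In all, 36 of the 88 deep wells held any of the 6, namely 7 uncrushed, 13 day 2 and 16 day 4 wells, and 27 of the 36 held a single member. The intervals of uncrushed and day 4 wells lie apart for Cxcl16 alone, and those of Cxcl2, Cxcl9, Cxcl10 and Cxcl14 overlap at all 3 time points. How many of all genes have intervals that lie apart was not counted. At day 4, 34.8% of 8406 genes were held by a share of wells at least 20 percentage points above uncrushed. The intervals leave out differences between animals, so they do not compare the time points. Day 4 deep wells also had more genes with any read, at a median of 4992, against 3161 in uncrushed wells.

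**Figure D1:**
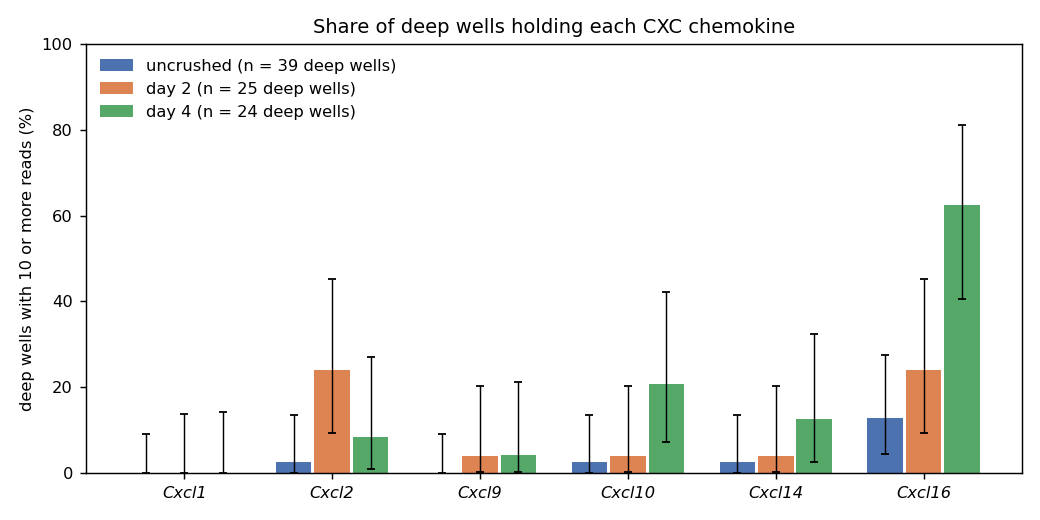
Percent of deep wells with 10 or more reads of each CXC chemokine gene in uncrushed retina (39 deep wells), day 2 (25) and day 4 (24). Bars are shares and error bars are Clopper-Pearson 95% intervals. Cxcl16 has the tallest bar, 62.5% at day 4, and Cxcl2 has its highest share at day 2, 24%.

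**Figure D2:**
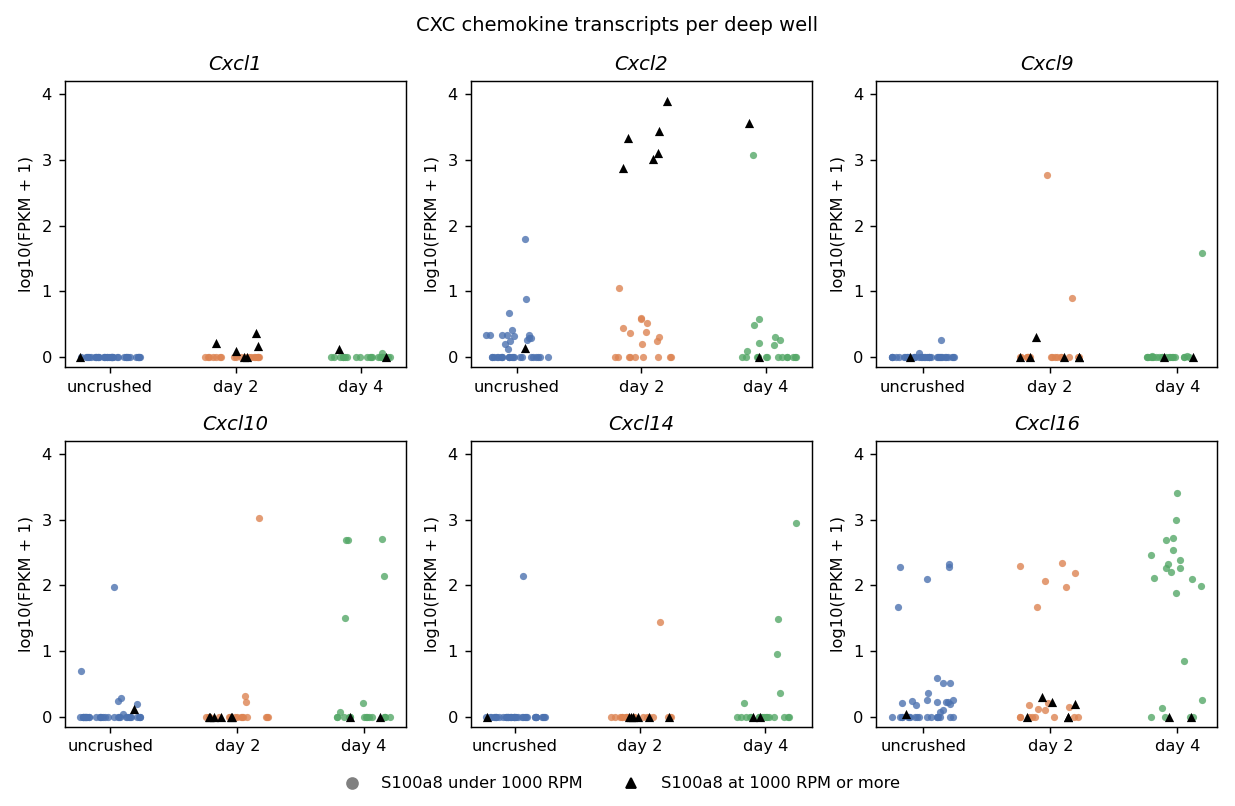
Level of each CXC chemokine gene in every deep well, as log10(FPKM + 1), by time point. Each point is a well; black triangles are wells with S100a8 at 1000 RPM or more. Most wells lie near 0 and a few lie far above, except for Cxcl16 at day 4, which 15 of 24 wells hold. The wells far above are mostly triangles for Cxcl2, and none are for Cxcl16.

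Cxcl1 (ENSMUSG00000029380, chromosome 5, 90891241 to 90893115, + strand, 1875 exon bases) was near or at 0 throughout. Any read was found in 0 uncrushed, 4 day 2 and 2 day 4 deep wells, and the highest value was 1.17 reads. At 10 reads, 0 of 39 uncrushed wells allow a share of up to 7.69%, 0 of 25 day 2 wells up to 12% and 0 of 24 day 4 wells up to 12.5%, by the limit of 3 counts. The upper ends of the Clopper-Pearson intervals are 9.03%, 13.7% and 14.2%. Also in the 9 wells that held its neighbour Cxcl2, Cxcl1 had at most 1.17 reads. All 6 deep wells with any Cxcl1 read were among these wells with Cxcl2, and 1 of the 6 values was a whole number of reads. No run of 50 bases is shared between the transcripts of Cxcl1 and those of any other gene. Whether the fractions are reads of Cxcl1 was not tested.

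Cxcl2 (ENSMUSG00000058427, chromosome 5, 90903871 to 90905938, + strand, 2068 exon bases) was a gene of few wells at high level. Of the uncrushed wells, well A6 of plate 2 held it, at 62.0 FPKM. The 6 day 2 wells that held it had 8005 FPKM (plate 1, E6), 2735 FPKM (plate 3, D2), 2153 FPKM (plate 1, D2), 1275 FPKM (plate 1, E1), 1037 FPKM (plate 2, D3) and 754 FPKM (plate 2, E4). At day 4, well G2 of plate 1 had 3602 FPKM and well F1 of plate 1 had 1191 FPKM. The other 19 day 2 wells had at most 7 reads, or 10.2 FPKM, so the day 2 wells split into a high set on all 3 plates and a set near 0, with a gap between them.

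The 6 day 2 wells with Cxcl2 were the same 6 that had S100a8 at 1000 RPM or more. Over all deep wells, 7 of the 9 S100a8-high wells held Cxcl2 (77.8%, 39.99 to 97.2%), against 2 of the 79 others (2.53%, 0.308 to 8.85%). The 9 wells had 2414 to 43557 RPM of S100a8, and the highest among the other 79 was 205 RPM. They held a median of 2 microglia markers (0 to 8), against 9 in the 79 others (1 to 11). Well E1 of plate 1, which held 8 microglia markers, also held 12 of 13 rod markers. The 2 S100a8-high wells without Cxcl2 were well G5 of plate 1 at day 4 (0 FPKM) and well C5 of plate 1 in uncrushed retina (0.36 FPKM, with the highest S100a8 of all deep wells at 43557 RPM). How far the number of such wells at each time point reflects the retina or the sort was not tested.

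**Figure D3:**
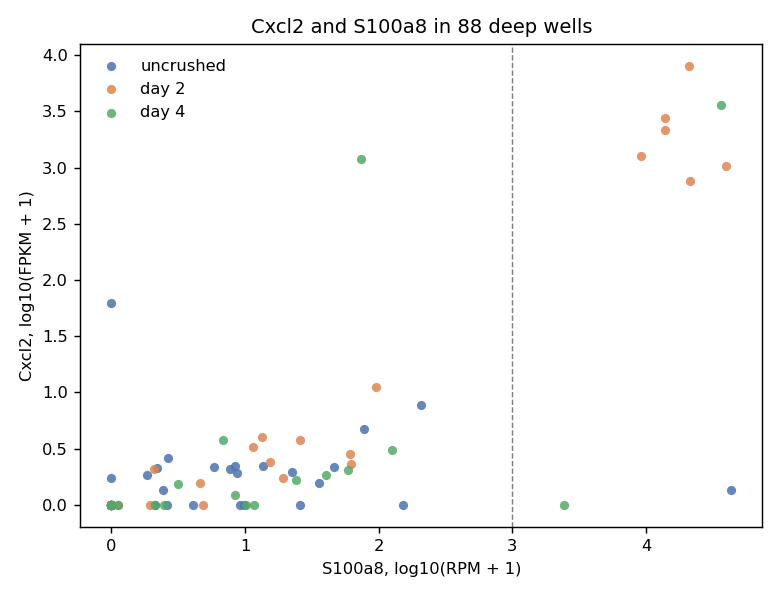
Cxcl2 as log10(FPKM + 1) against S100a8 as log10(RPM + 1) in the 88 deep wells, coloured by time point; the dashed line is 1000 RPM. To the right of the line 7 of 9 wells hold Cxcl2, and to the left 2 of 79 do.

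Genes of the same axis were found in the same wells. Cxcr2, the receptor for Cxcl1 and Cxcl2, was held by 8 of the 9 S100a8-high wells and by 0 of the 79 others. Cxcr2 is also on the list of neutrophil markers used above. Cxcl3, a close relative of Cxcl2 that shares its receptor, was held by 0 uncrushed, 5 day 2 and 2 day 4 wells, and all 7 also held Cxcl2. Of the 50-base runs of Cxcl2 transcripts, 5.84% also occur in Cxcl3, so part of the reads of either gene could have been assigned to the other. Il1b, the interleukin 1 beta gene, was held by all 9 wells with Cxcl2, against 14 of the 79 wells without it. Cxcl10 and Cxcl16 were held by 0 of the 9 S100a8-high wells, against 7 and 26 of the 79 others.

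The exceptions were the 2 wells with Cxcl2 and S100a8 under 1000 RPM. Well F1 of plate 1 at day 4 had 72.6 RPM of S100a8, 6 microglia markers, 1 monocyte marker and 1 border macrophage marker. It also had 895 FPKM of Cxcl14, 285 FPKM of Cxcl16 and 2887 FPKM of Cxcl3. It was the only well to hold Cxcl2 with Cxcl16 or with Cxcl14. The uncrushed well A6 of plate 2 had 0 RPM of S100a8, 5 microglia markers and 1 monocyte marker. The cell type of the 2 wells was not tested further.

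As mean log2(FPKM + 1) over deep wells, Cxcl2 was at 0.62 ± 1.12 in uncrushed, 3.24 ± 4.51 in day 2 and 1.21 ± 3.08 in day 4 wells (SD over 39, 25 and 24 wells). The day 2 minus uncrushed difference was 2.61, with 3.02, 3.17 and 1.603 within plates 1, 2 and 3. Without the S100a8-high wells it was 0.19, with 0.82 ± 0.98 in 19 day 2 wells and 0.63 ± 1.13 in 38 uncrushed wells. The 2.61 therefore rests on the 6 S100a8-high wells of day 2. The day 4 minus uncrushed difference was 0.59 and was -0.32 without the 18 doubly labelled wells, among which are both day 4 wells that held Cxcl2.

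Cxcl9 (ENSMUSG00000029417, chromosome 5, 92321347 to 92328079, - strand, 3016 exon bases) was held by 2 deep wells. Well D1 of plate 3 at day 2 had 590 FPKM with 8 microglia markers, and well H5 of plate 2 at day 4 had 37.7 FPKM with 11. No uncrushed well held it, and 0 of 39 allows a share of up to 7.69% by the limit of 3 counts (upper Clopper-Pearson end 9.03%).

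Cxcl10 (ENSMUSG00000034855, chromosome 5, 92346638 to 92348889, - strand, 2252 exon bases) was held by 1 of 39 uncrushed wells (2.56%), 1 of 25 day 2 wells (4.0%) and 5 of 24 day 4 wells (20.8%, 7.13 to 42.2%). The uncrushed well, C4 of plate 3, had 94.4 FPKM. The highest level was at day 2, in well D6 of plate 1 with 1068 FPKM. The day 4 wells had 505, 495, 487 and 31.1 FPKM on plate 2 (H5, H3, F6 and F4) and 137 FPKM on plate 1 (F6). Day 4 thus had more wells with Cxcl10 but none as high as the day 2 well, and 4 of its 5 wells lay on plate 2.

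The mean log2(FPKM + 1) of Cxcl10 was 0.30 ± 1.11, 0.47 ± 2.01 and 1.66 ± 3.30 over the series. Its day 4 minus uncrushed difference was 1.36, with 0.57, 2.94 and -0.51 within plates 1, 2 and 3, and 2.41 without the 18 doubly labelled wells. Without plate 2 it was 0.23. The day 2 minus uncrushed difference was 0.17.

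All 7 wells with Cxcl10 also held Cxcl16, Gpr84 (a receptor for medium-chain fatty acids named in the title of the series), Tnf, Ccl12 and Ccl3, and 6 of the 7 held Il1a. Of the 81 wells without Cxcl10, 19 held Cxcl16, 16 held Gpr84, 7 held Tnf, 36 held Ccl12, 18 held Ccl3 and 20 held Il1a. Il1b was held by 1 of the 7, against 22 of the 81. The 81 include the 9 S100a8-high wells, 7 of which held Cxcl2 and with it Il1b. The 7 wells with Cxcl10 had 10 or 11 of the 11 microglia markers. They also had a median of 8888 genes with any read, against 3311 in the 81 others. Among the 23 deep wells with 5000 or more genes, all 6 with Cxcl10 held Tnf, Ccl3, Gpr84, Il1a, Cxcl16 and Ccl12. Of the 17 without Cxcl10, 6 held Tnf, 7 held Ccl3, 10 held Gpr84, 12 held Il1a, 13 held Cxcl16 and 16 held Ccl12. The part of the number of genes per well in this overlap was not tested further. A stretch of 133 exon bases of Cxcl10 overlaps Art3 on the opposite strand, and 6 of the 7 wells held Art3 as well, at a median of 0.140 Art3 reads per Cxcl10 read.

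Cxcl14 (ENSMUSG00000021508, chromosome 13, 56288643 to 56296551, - strand, 1827 exon bases) was held by 5 deep wells. The uncrushed well, B5 of plate 1, had 136 FPKM and 4 rod markers, and the day 2 well, D6 of plate 1, had 26.7 FPKM and also the highest Cxcl10. The day 4 wells were F1, G4 and F6 of plate 1, with 895, 29.7 and 7.91 FPKM. All 5 wells lay on plate 1, and all 3 of day 4 are among the doubly labelled wells, without which 0 of 12 day 4 wells held it. The day 4 minus uncrushed difference in mean log2(FPKM + 1) was 0.64, and -0.12 without those wells.

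**Figure D4:**
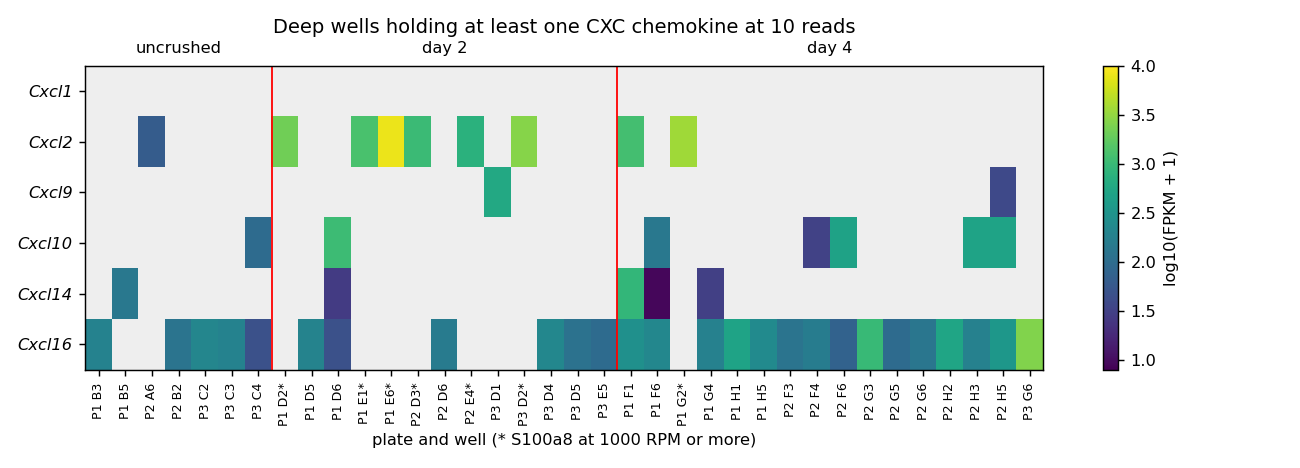
The deep wells that held at least 1 of the 6 genes, 1 column per well, ordered by time point and plate (P); colour is log10(FPKM + 1) where the gene had 10 or more reads and grey where it had fewer. Stars mark wells with S100a8 at 1000 RPM or more. Cxcl2 and Cxcl16 share 1 column, F1 of plate 1, and each Cxcl10 column has Cxcl16.

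Cxcl16 (ENSMUSG00000018920, chromosome 11, 70453983 to 70459984, - strand, 3021 exon bases) was the member with the broadest presence. The 5 uncrushed wells that held it had 212, 188 and 45.6 FPKM on plate 3 (C2, C3 and C4), 186 FPKM on plate 1 (B3) and 122 FPKM on plate 2 (B2). The 6 day 2 wells had 214, 116 and 94.5 FPKM on plate 3 (D4, D5 and E5), 194 and 45.4 FPKM on plate 1 (D5 and D6) and 153 FPKM on plate 2 (D6). The 15 day 4 wells had 74.5 FPKM at the lowest (plate 2, F6), 213 FPKM at the median and 2559 FPKM at the highest (plate 3, G6). The levels in holding wells overlapped between the time points, although 7 day 4 wells lay above the highest uncrushed and day 2 wells. The number of holding wells differed more: the median over all deep wells was 0.17 FPKM for uncrushed, 0.31 FPKM for day 2 and 127 FPKM for day 4.

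As mean log2(FPKM + 1), Cxcl16 was at 1.26 ± 2.33 in uncrushed, 1.86 ± 2.95 in day 2 and 5.20 ± 3.93 in day 4 wells (SD over 39, 25 and 24 deep wells). The day 4 minus uncrushed difference was 3.94, with 2.38, 6.06 and 5.21 within plates 1, 2 and 3. By plate, 5 of 12, 9 of 10 and 1 of 2 day 4 wells held it, against 1 of 11, 1 of 15 and 3 of 13 uncrushed wells. Of the 11089 genes measured in this comparison, 21 had a larger difference. The day 4 minus day 2 difference was 3.34, and the day 2 minus uncrushed difference was 0.60, or 1.03 without the S100a8-high wells. Without the 18 doubly labelled wells, 10 of 12 day 4 wells held Cxcl16 (83.3%) and the day 4 minus uncrushed difference was 5.74, so the direction does not rest on them. With each deep well thinned to 50000 reads, 4 of 39 uncrushed, 4 of 25 day 2 and 15 of 24 day 4 wells held it.

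The number of genes found in a well moved with Cxcl16. Deep wells had a median of 3161 genes with any read when uncrushed, 3777 on day 2 and 4992 on day 4, and the 26 wells with Cxcl16 had a median of 6558.5, against 3082 in the 62 without. Of the wells with 5000 or more genes, 2 of 2 uncrushed, 6 of 9 day 2 and 11 of 12 day 4 wells held it. Of those with fewer genes, 3 of 37 uncrushed, 0 of 16 day 2 and 4 of 12 day 4 wells did. The well with the highest Cxcl16, G6 of plate 3 at day 4, had 2213 genes. Among wells with many genes the shares at day 2 and day 4 were thus both high, and few uncrushed wells were of that kind. The part of this number in the Cxcl16 difference was not tested further.

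**Figure D5:**
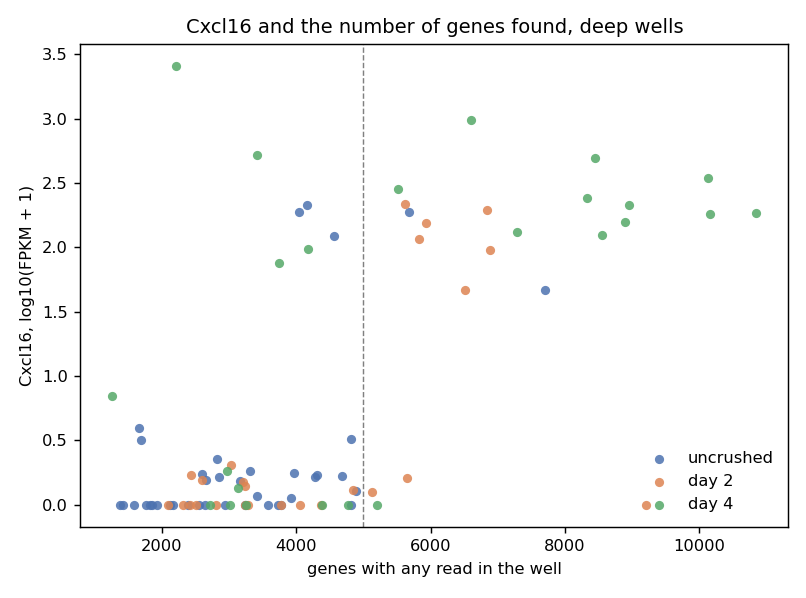
Cxcl16 as log10(FPKM + 1) against the number of genes with any read in each of the 88 deep wells, coloured by time point; the dashed line is 5000 genes. To the right of the line 19 of 23 wells hold Cxcl16, and to the left 7 of 65 do.

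Other inflammatory transcripts were counted in the wells with and without Cxcl16. Tnf was held by 14 of the 26 wells with Cxcl16, against 0 of the 62 without. Gpr84 was held by 17 of the 26 wells with Cxcl16, against 6 of the 62 without. Ccl12, a ligand of the monocyte receptor CCR2, was held by 24 of the 26, against 19 of the 62. Il1b was held by 4 of the 26, against 19 of the 62, and at day 2 by 1 of 6, against 10 of 19. The wells without Cxcl16 include all 9 S100a8-high wells, 6 of them at day 2. Il1b was held by 11 of all 25 day 2 wells, but by 5 of the 19 that were not S100a8-high. The Il1b contrast was not counted without the S100a8-high wells. Among the 23 wells with 5000 or more genes, Tnf was held by 12 of 19 with Cxcl16, against 0 of 4 without, and Gpr84 by 15 of 19, against 1 of 4. Ccl12 was held there by 19 of 19 with Cxcl16, against 3 of 4 without.

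The gene whose level across the 88 deep wells was most like that of Cxcl16 was Zmynd15, with a Spearman rho of 0.79, the highest of 3605 genes. Zmynd15 lies on the opposite strand and shares 552 exon bases with Cxcl16. It was held by 21 of the 26 wells with Cxcl16 and by none without, at a median of 0.110 Zmynd15 reads per Cxcl16 read. In all 33 wells with any Zmynd15 read its value was a multiple of 0.5 reads. The library kit named in the labels does not mark the strand, so reads of the shared stretch cannot be told apart. Next were Nfkbib, an inhibitor of NF-kB, at rho 0.58, and Hspd1, a mitochondrial chaperone, at rho 0.57. All 14 wells with Nfkbib held Cxcl16, but in the 24 day 4 wells alone Nfkbib ranked 448. These values describe wells that share plates, depth and number of genes. No other of the 6 genes was held by the 10 wells set as the minimum for such a ranking.

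Counted against all genes, the day 2 and day 4 differences of the 6 were as follows. At day 2 minus uncrushed, 3 of the 6 passed the filter on low values (at FPKM 1 or more in 5% of the deep wells) and 1, Cxcl2, was higher by 1 or more in mean log2(FPKM + 1), where 13.8% of all 9716 genes were. At day 4 minus uncrushed, 4 passed and 2, Cxcl10 and Cxcl16, were higher by 1 or more, where 26.5% of all 11089 genes were. At day 4 minus day 2, 5 passed, 2 were higher by 1 or more (Cxcl10 by 1.19 and Cxcl16 by 3.34), where 12% of all 12615 genes were, and Cxcl2 was lower at -2.02, where 1.23% of genes were lower by 1 or more. Without the S100a8-high wells the last difference was -0.03. None of the 6 was lower by 1 or more against uncrushed retina, where 1.06% of genes at day 2 and 0.712% at day 4 were. Only Cxcl16, with an uncrushed mean of 1.26, could have been. The uncrushed means of Cxcl1, Cxcl2, Cxcl9, Cxcl10 and Cxcl14 were 0, 0.62, 0.03, 0.30 and 0.18, too low for a fall of 1. By share of wells, Cxcl2 at day 2 and Cxcl16 at day 4 were higher than uncrushed by 20 percentage points or more. Of genes with 10 or more reads in at least 5% of the deep wells, 11.8% of 6906 at day 2 and 34.8% of 8406 at day 4 were. Cxcl16 was so at day 4 minus day 2 as well, by 38.5 percentage points, where 14.6% of 10158 such genes were. Counts of 1 or 2 higher genes among 6 are not read as apart from these shares. The comparisons share their wells, so they are not independent of each other.

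The remaining ligands of the family were mostly absent. Of 9 others, Cxcl5, Cxcl11, Cxcl12, Cxcl15, Cxcl17 and Ppbp were held by no deep well, and Pf4 (platelet factor 4) by 2, 0 and 1. Cxcl13, which attracts B cells through CXCR5, was held by 0 uncrushed, 4 day 2 and 6 day 4 wells. Its day 4 minus uncrushed difference was 2.47 in mean log2(FPKM + 1), with 3.58, 1.61 and -0.19 within plates, and its day 2 minus uncrushed difference was 1.32. It was held by 8 of the 26 wells with Cxcl16, against 2 of the 62 without. Of 8 receptors, Cxcr2 was held by 1, 5 and 2 wells, Cxcr4 by 1, 1 and 2, Cxcr5 by 0, 1 and 0, and Cxcr1, Cxcr3, Cxcr6, Ackr1 and Ackr3 by none. Cxcr3 and Cxcr6, the receptors of Cxcl9, Cxcl10 and Cxcl16, were thus not detected at 10 reads in any deep well.

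The interferon and JAK-STAT genes that act above Cxcl9 and Cxcl10 gave a mixed account. Of 18, 15 passed the filter at day 4 minus uncrushed, 5 were higher by 1 or more and none lower, where 26.5% of all genes were higher, and the median was 0.52, against 0.50 over all genes. These values are close to those of all genes. Ifngr2, a chain of the interferon gamma receptor, was at 3.31 at day 4, against 0.96 in uncrushed retina, in mean log2(FPKM + 1), and the kinase Jak1 at 2.64, against 0.83. Socs3, a feedback inhibitor of cytokine signalling, was at 3.25, against 2.07. Within plates 1, 2 and 3 the differences were 2.69, 3.29 and -1.32 for Ifngr2, 1.87, 2.02 and -0.57 for Jak1, and -0.07, 2.41 and -1.56 for Socs3, which was higher on plate 2 alone. At day 2, 14 passed and 4 were higher, where 13.8% of all genes were, with a median of 0.49, against 0.26 over all genes, and the other chain of the receptor, Ifngr1, was at 4.34, against 2.51.

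The NF-kB genes and receptors that act above Cxcl1 and Cxcl2 were described in the same way. Of 25, 24 passed at day 4 minus uncrushed, 11 were higher by 1 or more and none lower, where 26.5% of all genes were higher, and the median was 0.73, against 0.50 over all genes. The median number of genes per deep well was also higher, 4992 at day 4, against 3161 in uncrushed retina, and its part in these differences was not tested. Tlr2, which senses bacterial lipoproteins and tissue damage, was at 4.06 at day 4, against 0.83 in uncrushed retina. Tnf was at 3.27, against 0.75, and Nfkbib at 2.42, against 0.30. On plate 3, with 2 deep day 4 wells, all 3 differences were below 0, at -0.54, -0.83 and -0.42. At day 2, 23 passed and 5 were higher, where 13.8% of all genes were, with a median of 0.37, against 0.26 over all genes, and without the S100a8-high wells 1 was higher by 1 or more, where 17.3% of all genes were. Il1b was at 4.28 at day 2, against 1.75 in uncrushed retina, but at 1.62, against 1.45, without those wells. Myd88, the adaptor of Toll-like receptors, was at 2.75, against 1.07, and at 1.84, against 0.89, without those wells.

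Of the genes for shedding of Cxcl16, Adam10 and Adam17 passed the filter and the inhibitor Timp3 did not. Adam17 was at 1.57 at day 4, against 0.53 in uncrushed retina, and at 1.70 at day 2. Adam10 was at 1.32 at day 4, against 0.54, and at 2.20 at day 2. Against uncrushed retina the differences were 1.04 at day 4 and 1.17 at day 2 for Adam17, and 0.77 at day 4 and 1.65 at day 2 for Adam10. Over all genes the median difference was 0.50 at day 4 and 0.26 at day 2, and 26.5% and 13.8% of genes were higher by 1 or more. The part of the number of genes per well in these differences was not tested.

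In the 56 shallow wells 1 read is worth a median of 145 to 177 FPKM of Cxcl16, so a level cannot be read there, only presence. Cxcl16 had FPKM 1 or more in 5 of 15 uncrushed, 5 of 11 day 2 and 17 of 30 day 4 shallow wells (56.7%, 37.4 to 74.5%), with a median of 2 reads in each. Cxcl2 was present in 3 of 15, 5 of 11 and 8 of 30, and Cxcl10 in 0 of 15, 2 of 11 and 5 of 30. S100a8 was at 1000 RPM or more in 7 of 15, 5 of 11 and 11 of 30. At day 2, the shallow wells D1, D4, D5 and E6 of plate 2 had Cxcl2 with 4376 to 45780 RPM of S100a8. Well E6 of plate 3 had Cxcl2 with 0 RPM. Cxcl9 was present in 0, 1 and 4, Cxcl14 in 1, 0 and 0, and Cxcl1 in none. The order of the Cxcl16 shares over time was the same as in deep wells, with intervals that overlap.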

How the data were processed

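Single sorted retinal cells were profiled. Per the labels' protocols, cDNA was amplified cell by cell and tagmented with the Nextera XT kit, which does not mark strand. The submitters' processing notes name the trimmers cutadapt 1.16, Trimmomatic 0.36 and Trim Galore 0.4.4, the aligner STAR 2.7.2b, the counter featureCounts 1.6.1 and the build GRCm38.p6 (mm10). The values deposited by the authors are FPKM for 55364 genes in 144 wells, with no molecular identifiers, so a read is not a separate molecule.

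FPKM times exon length in kilobases summed to 1000000 per well, which gives RPM. The most frequent product above 0 was taken as 1 read. In deep wells 36.3% of values under 100 reads were then whole within 0.01, the rest being fractions, so no count test was run. Deep wells had 50000 or more reads, and a gene was held at 10 reads. Groups came from titles. Differences are of mean log2(FPKM + 1) over wells, over all plates and within each, for genes whose FPKM reached 1 in 5% or more of the deep wells of the pair. A gene counted as past the threshold at a difference of 1 or more, or at 20 percentage points of share. For the share, all genes were those with 10 or more reads in 5% or more of the deep wells of the pair. A well of 5000 genes or more was one with that many genes with any read. Shares have exact Clopper-Pearson 95% intervals, and for 0 wells the share that 3 wells would give is printed as a limit too. No animal is named, so no test was run. The calculation of differences recovered known changes when tested on simulated data. Those changes were put into genes with reads in at least 20% of uncrushed deep wells. Cxcl1, Cxcl9, Cxcl10 and Cxcl14 had reads in fewer wells than that. Shares, overlaps between genes and likeness were not simulated.

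The genes named are the 6 members, the 3 most like each member held by at least 10 deep wells (Gm, Rik, mitochondrial, ribosomal and pseudogene symbols left out), other ligands and receptors held by at least 3 deep wells, and from each list the 3 largest differences at day 4 and the 2 largest at day 2. Cxcl1 to Cxcl16, the lists, the deep wells and the S100a8 minimum were chosen with earlier results of these data known. Gpr84, Tnf, Il1a, Ccl3, Ccl12, Cxcl3, Art3, Pf4, Cxcr4 and other ligands or receptors with few wells are described as partners. Alternatives cover plates, wells left out, depth, read rules, pseudocount, scaling and thinning. Genes sharing 50 bases with other transcripts were found in GENCODE transcripts of the same build, and promoter windows are from RefSeq. Python 3.11.15, pandas 2.3.3, numpy 2.4.6 and scipy 1.17.1 were used.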

Additional observations from a re-analysis of the deposited data

How the results depend on the processing

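Under other settings, 252 of 288 shares stayed within their counting interval. Of 270 differences, 246 kept their direction, where past the threshold of 1, and their side of it, and 84 of 90 counts of genes stayed within 1.5 times. These tallies include values that could hardly move. Cxcl1 was held by no deep well, and at a pseudocount of 1 only Cxcl16 could have fallen by 1 against uncrushed retina. For the exceptions the cause was not tested beyond what each setting leaves out. Settings on rod markers, microglia markers and 5000 genes were added after seeing the data.

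The share of deep wells with Cxcl2 in uncrushed retina was 0% without plate 2, thinned to 50000 reads, at 200 RPM or with 5000 or more genes, and 25.6% at FPKM 1. At day 2 it was 0% without the S100a8-high wells or with 5000 or more genes, and 56% at FPKM 1. At day 4 it was 0% without plate 1 or the 18 doubly labelled wells, left out or moved to day 2. Cxcl9 at day 2 was 0% without plate 3 or with 5000 or more genes, and at day 4 it was 0% without plate 2, thinned or at 200 RPM. Cxcl10 in uncrushed retina was 0% without plate 3 or thinned and 50% with 5000 or more genes, and at day 2 it was 0% without plate 1. Cxcl14 in uncrushed retina was 0% without plate 1, without wells of 3 or more rod markers or with 5000 or more genes. At day 2 it was 0% without plate 1, thinned or at 200 RPM, and at day 4 it was 0% without plate 1 or the doubly labelled wells. Cxcl16 with 5000 or more genes was 100% for uncrushed, 66.7% for day 2 and 91.7% for day 4 wells. At day 4 it was 83.3% without plate 1 or the doubly labelled wells, and 27.8% over wells of any depth.

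The Cxcl2 difference at day 2 minus uncrushed was 0.19 without the S100a8-high wells. The Cxcl16 difference there was 1.03 without them and 1.09 with the doubly labelled wells at day 2, which made the number of genes higher 2. As log2 ratios of mean FPKM + 1, day 2 minus uncrushed was 4.61 for Cxcl9, 3.61 for Cxcl10 and -1.12 for Cxcl14, a change of sign. At day 4 minus uncrushed such ratios were 5.97 for Cxcl2, 1.33 for Cxcl9 and 3.15 for Cxcl14, and at day 4 minus day 2 they were -3.28 for Cxcl9, 0.68 for Cxcl10 and 4.27 for Cxcl14. Without plate 2, day 4 minus uncrushed was 1.27 for Cxcl2, 0.23 for Cxcl10 and 1.07 for Cxcl14, and day 4 minus day 2 was -0.10 for Cxcl10, a change of sign, and 1.11 for Cxcl14. With a pseudocount of 10, Cxcl10 was at 0.85 at day 4 minus uncrushed and 0.68 at day 4 minus day 2, which left 1 gene higher in each. With a pseudocount of 0.1, Cxcl14 was at 1.164 and 1.11. Over wells of any depth, Cxcl10 at day 4 minus day 2 was 0.80, which left 1 gene higher. Cxcl2 at day 4 minus day 2 was -0.033 without the S100a8-high wells and -0.99 without wells of fewer than 3 microglia markers, which left 0 genes lower.

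No paired analysis was possible because the labels number wells and not animals, and no result comes from a test. The number of deep wells limits every share, and shallow wells give presence only.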
